A study of Mus musculus with 4 samples.

Results

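The difference between high-fat high-sucrose (HFHS) and standard (STD) chow was examined in epididymal fat of Mir221/222 AdipoKO mice, in which both microRNA genes are deleted in adipocytes, by setting the array of an AdipoKO mouse on HFHS chow against that of an AdipoKO mouse on STD chow. These are 2 of the 4 arrays of the series, and the other 2 are from flox/y mice on the same chows. Of 22180 genes with a named probe set, the 10759 at or above the negative control average of both AdipoKO arrays were compared as measured ratios. A further 679 genes were above it on HFHS only, 301 on STD only and 10441 on neither.

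The study asked how loss of the paired microRNAs Mir221 and Mir222 in adipocytes alters diet-induced obesity. The groups were HFHS AdipoKO (mouse 384), STD AdipoKO (mouse 387), HFHS flox/y (mouse 388) and STD flox/y (mouse 378), each 1 male of 16 weeks, the chows being given from 5 weeks of age. All 4 carry the floxed Mir221 tm2 allele on their single X chromosome on a C57BL/6J background (C57BL/6JJcl in the paper), AdipoKO mice also carry Adipoq-Cre, and flox/y mice lack Cre. Adipoq-Cre acts in adipocytes, so that the vessel, immune and stromal cells of the same fat pad keep the genes. Groups were read from titles, descriptions and genotypes, because the source field of the labels names a different microRNA line and, for some samples, the other chow.

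Epididymal white fat stores triglyceride in large adipocytes that lie among capillaries, fibroblast-like progenitors, macrophages and, at its surface, mesothelium. In mice overfed with fat and sugar the pad enlarges, adipocytes secrete more leptin, macrophages gather around dying adipocytes, and matrix is laid down. The liver-type programme of turning carbohydrate into fatty acid also runs in adipocytes and follows insulin and sugar supply. MicroRNAs lower the output of mRNAs that pair with their seed, bases 2 to 8 of the mature strand. The mature strands that adipocytes of both AdipoKO mice lack are given here as RefSeq holds them (GRCm38.p6), with the seed in capitals, because their shared seed defines the predicted targets described further on.

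miR-221-3p: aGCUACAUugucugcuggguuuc
miR-222-3p: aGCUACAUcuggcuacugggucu

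The strands lie on the minus strand at chrX:19146307-19146329 and chrX:19146901-19146923, share their first 8 bases, and are identical at 11 of 23 positions counted from the 5′ end. Neither gene could serve as a check of genotype on these arrays. The Mir221 probe set read 16.4 on HFHS AdipoKO and 12.5 on STD AdipoKO, against 13.3 on HFHS flox/y and 34.1 on STD flox/y. The Mir222 probe set read 16.9 and 15.4 in HFHS and STD AdipoKO, with 12.2 and 48.1 in HFHS and STD flox/y. All 8 values lay under the negative control average of their array, the background used throughout, which was 52.8 on HFHS AdipoKO and 55.43 on STD AdipoKO, with 50.46 on HFHS flox/y and 60.07 on STD flox/y.

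Expression values here are the deposited log2 values turned back to a linear scale, and a ratio is HFHS over STD. The 4 columns had medians between 5.39 and 5.42 on the log2 scale, and 39.6% to 44.9% of 41345 probe sets were at or above background. The tissue label was borne out by adipocyte genes, with all 17 members of the adipocyte identity list that are on the array above background on both AdipoKO arrays. Each group being a single mouse, no replicate error could be given and no test made, and a difference between chows cannot be told apart from a difference between the mice, their handling or their dissection. In whole tissue, fewer cells of a type and less RNA per cell cannot be told apart either.

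Most genes differed little between the chows in AdipoKO fat. The median log2 ratio of the 10759 genes was -0.017, their SD was 0.33, and 93.3% lay within 1.5-fold. At least 2-fold higher on HFHS were 93 genes (0.864%), and at least 2-fold lower were 83 (0.771%). At 1.5-fold the counts were 365 higher (3.39%) and 361 lower (3.36%). A ratio above 1 was held by 47.3% of the genes. These shares are the background against which the gene lists below are read. The genes on each side of the 2-fold threshold had log2 ratios of 1.0 and 0.995 for higher genes, and of -1.0 and -0.996 for lower genes. With the genes split evenly by brightness into dim, middle and bright ones, the dim genes held 6 higher and 10 lower calls, the middle genes 35 and 30, and the bright genes 52 and 43. When hepatocyte markers and immediate early genes were left out, which was decided with the values in view, the counts were 87 higher genes (0.811%) and 79 lower ones (0.737%).

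**Figure D1:**
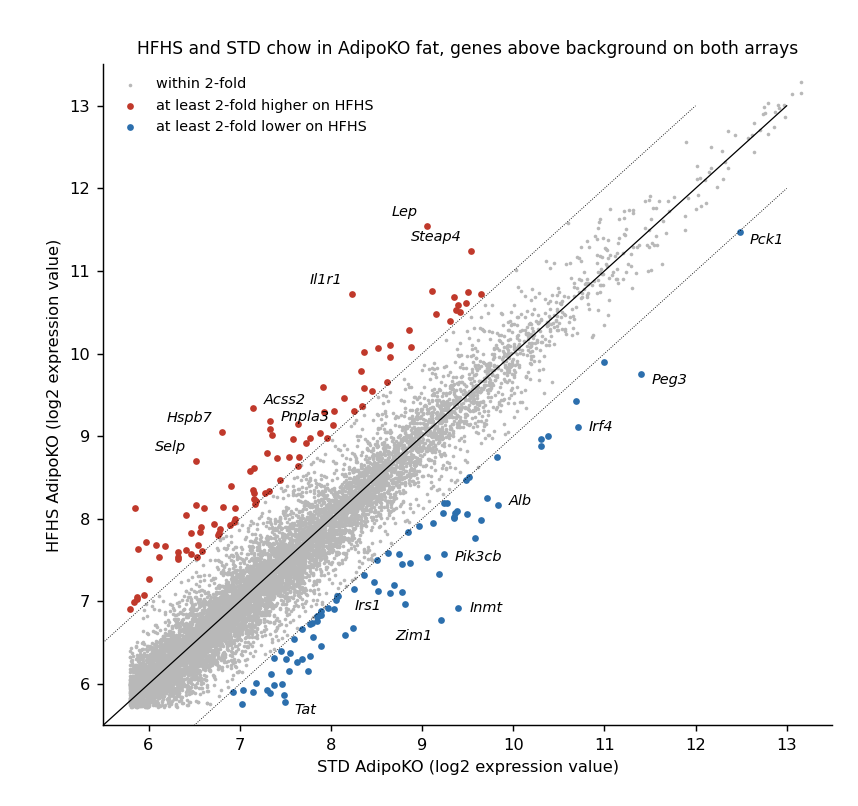
Log2 expression value of each of the 10759 genes above background on both AdipoKO arrays, HFHS on the vertical and STD on the horizontal axis, with 1 point per gene. The solid line marks equal values and dotted lines mark 2-fold, with 93 red genes above and 83 blue genes below, and Lep, Il1r1 and Steap4 stand out above the line while Inmt, Zim1 and Peg3 stand out below it.

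The genes furthest above the STD mouse on HFHS chow were a cytokine receptor, a fat hormone and genes of lipid handling. Il1r1, the signalling receptor for interleukin-1, read 1693 on HFHS AdipoKO and 300 on STD AdipoKO, a 5.64-fold higher value. The flox/y arrays lay between them at 640 on HFHS and 650 on STD. Lep, the hormone leptin with which adipocytes report fat stores, read 2986 on HFHS AdipoKO and 530 on STD AdipoKO, or 5.63-fold higher. The flox/y pair gave 2821 on HFHS and 793 on STD for Lep, so both HFHS arrays were high and both STD arrays low. Il1r1 lies at chr1:40222480-40316201 and Lep at chr6:29060221-29073876 in GRCm38.

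Hspb7, a small heat shock protein best known from heart and muscle, read 532 on HFHS AdipoKO and 112 on STD AdipoKO (4.76-fold higher), with 212 on HFHS flox/y and 75.2 on STD flox/y. Selp, the adhesion molecule P-selectin of endothelium and platelets, read 416 on HFHS AdipoKO and 91.5 on STD AdipoKO, 4.54-fold higher. The flox/y values of Selp were 141 on HFHS and 129 on STD, so that only the HFHS AdipoKO array was high. Steap4, a metalloreductase of adipocytes, read 2415 on HFHS AdipoKO and 745 on STD AdipoKO (3.24-fold higher), while HFHS flox/y had 1223 and STD flox/y 1788. Mmp19, a matrix metalloproteinase, was 3.23-fold higher at 777 on HFHS AdipoKO against 240 on STD AdipoKO, with 578 and 659 in HFHS and STD flox/y. For Steap4 and Mmp19 the AdipoKO values lay on either side of the flox/y pair.

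Other members of the 15 largest increases followed the chow in both genotypes. Pcbd1, an enzyme that recycles the pterin cofactor, was 3.39-fold higher at 200 on HFHS AdipoKO against 58.9 on STD AdipoKO. Tlcd2, a membrane protein, was 3.36-fold higher (210 on HFHS, 62.7 on STD), Ehd3, which acts in endocytic recycling, 3.16-fold higher (518 on HFHS, 164 on STD), and the aldehyde dehydrogenase gene Aldh1a7 3.16-fold higher (1042 on HFHS, 330 on STD). In flox/y fat these 4 genes had log2 ratios between 1.64 for Tlcd2 and 2.35 for Pcbd1, although the STD flox/y value of Pcbd1, 39.4, was below background. Egr1, an immediate early transcription factor, and Sdc4, a heparan sulfate proteoglycan of the cell surface, were 3.13-fold higher on HFHS AdipoKO and behaved otherwise in flox/y, as given with the immediate early genes.

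The genes furthest below the STD mouse included a methyltransferase, imprinted zinc finger genes and parts of the insulin signalling chain. Inmt, which methylates indolethylamines, read 121 on HFHS AdipoKO and 674 on STD AdipoKO, 5.56-fold lower. Its flox/y values were nearly the same pair, 125 on HFHS and 733 on STD. Inmt lies at chr6:55170627-55174990. Irf4, a transcription factor of immune cells and adipocytes, read 553 on HFHS AdipoKO and 1678 on STD AdipoKO (3.03-fold lower), with 483 on HFHS flox/y and 1023 on STD flox/y. Both HFHS arrays were therefore below both STD arrays for Inmt and Irf4.

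C9orf72, whose product takes part in autophagy and lysosome function, read 217 on HFHS AdipoKO and 768 on STD AdipoKO, 3.54-fold lower. The log2 ratio of C9orf72 was -1.82 on its brighter probe set and -0.97 as the mean of its 2 probe sets. Slc25a42, the mitochondrial carrier of coenzyme A, was 3.18-fold lower (139 on HFHS AdipoKO, 441 on STD AdipoKO), and Gpcpd1, which splits glycerophosphocholine, 3.17-fold lower (253 on HFHS, 803 on STD). Sult1e1, the oestrogen sulfotransferase, read 58.4 on HFHS AdipoKO and 179 on STD AdipoKO, 3.06-fold lower, while the flox/y arrays gave 164 on HFHS and 179 on STD. For Sult1e1 the HFHS AdipoKO array alone was low, close to its background of 52.8. Cnst, which takes part in connexin trafficking, was 3.0-fold lower (71.6 on HFHS, 215 on STD) and Uhrf1bp1 2.97-fold lower (102 on HFHS, 303 on STD). The liver genes Tat and Alb and the nuclear receptor Nr4a3 complete the 15 largest decreases apart from the insulin signalling and imprinted genes, and are given with their groups.

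**Figure D2:**
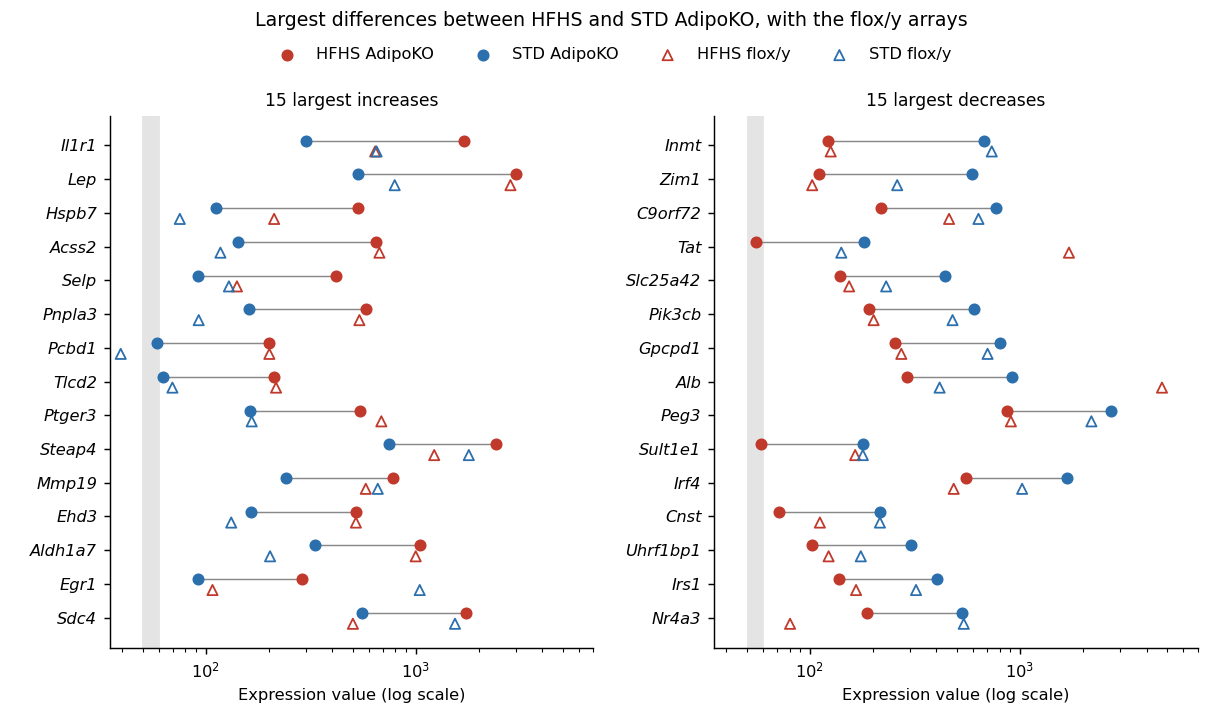
Expression value (log scale) of the 15 named genes with the largest increase, left, and the largest decrease, right, in AdipoKO fat, with filled circles for HFHS AdipoKO (red) and STD AdipoKO (blue), open triangles for HFHS flox/y (red) and STD flox/y (blue), and a grey band for the range of negative control averages. Each symbol is 1 array, and the triangles follow the circles for Lep, Acss2, Inmt and Peg3 but not for Il1r1, Selp, Egr1, Sdc4, Tat and Alb.

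Lipogenic genes were higher as a group on HFHS chow in AdipoKO fat. Of 20 measured genes of the fatty acid synthesis list, which makes acetyl-CoA, malonyl-CoA, NADPH and the fatty acids built from them, 17 had a ratio above 1. At 1.5-fold, 8 were higher and 1 lower, and the median log2 ratio was 0.35. The lower gene, named after its value was seen, was Acacb, the acetyl-CoA carboxylase that restrains fatty acid oxidation (-0.59). Acss2, which makes cytosolic acetyl-CoA from acetate, read 647 on HFHS AdipoKO and 142 on STD AdipoKO (4.56-fold higher). Elovl6, the elongase of palmitate, read 239 on HFHS AdipoKO and 95.2 on STD AdipoKO (2.51-fold higher). Me1, malic enzyme, a source of NADPH, was 1.97-fold higher (2058 on HFHS, 1046 on STD), and Thrsp, a lipogenic nuclear protein, 1.87-fold higher (1390 on HFHS, 744 on STD). Fasn, fatty acid synthase, read 3173 on HFHS AdipoKO and 1975 on STD AdipoKO, a 1.61-fold difference, against 3410 on HFHS flox/y and 828 on STD flox/y. The flox/y median of the list was 0.52, with 9 of 20 genes at least 1.5-fold higher (4.51% of all genes), and Acss2 in flox/y read 671 on HFHS and 117 on STD. Srebf1, the gene of the lipogenic regulator SREBP1, read 162 on HFHS AdipoKO and 124 on STD AdipoKO, with 218 and 112 in HFHS and STD flox/y.

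Genes that assemble triglyceride had ratios on both sides of 1. The 15 genes had a median log2 ratio of -0.03, and 2 were higher and 2 lower by 1.5-fold or more. Gpd1, glycerol-3-phosphate dehydrogenase, which supplies the glycerol backbone, read 1097 on HFHS AdipoKO and 401 on STD AdipoKO, 2.74-fold higher. Dgat2, which adds the last acyl chain, read 1346 on HFHS AdipoKO and 632 on STD AdipoKO, 2.13-fold higher. Pck1, which supplies the backbone from pyruvate (glyceroneogenesis), was 2.02-fold lower, at 2846 on HFHS AdipoKO against 5753 on STD AdipoKO. Gpam, the first acyltransferase of the pathway, was 1.59-fold lower (1173 on HFHS, 1863 on STD). Gpd1 and Pck1 thus had ratios on opposite sides of 1 in this pair of mice. In flox/y both were within 1.5-fold, with log2 ratios of 0.32 for Gpd1 and -0.22 for Pck1.

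Among 16 genes of lipolysis and its hormonal control, 5 were at least 1.5-fold higher and none lower. Pnpla3, a lipid droplet protein of the patatin family, was 3.61-fold higher (582 on HFHS AdipoKO, 161 on STD AdipoKO). Receptors filled much of the rest. Ptger3, the EP3 receptor through which prostaglandin E2 restrains lipolysis, read 542 on HFHS AdipoKO and 162 on STD AdipoKO (3.35-fold higher). Hcar1, the lactate receptor that also restrains it, was 1.83-fold higher (324 on HFHS, 178 on STD), and Npr3, the clearance receptor that removes natriuretic peptides, 2.37-fold higher (1723 on HFHS, 726 on STD). The fifth higher gene, named after its value was seen, was no receptor. It was Prkaca, a catalytic subunit of protein kinase A (759 on HFHS AdipoKO, 450 on STD AdipoKO, log2 ratio 0.76). The lipases themselves were level, with Pnpla2, adipose triglyceride lipase, at 5121 on HFHS AdipoKO and 5108 on STD AdipoKO and Lipe, hormone-sensitive lipase, at 487 on HFHS and 486 on STD. Lpl, which releases fatty acids from lipoproteins, read 6853 on HFHS AdipoKO and 7441 on STD AdipoKO. Fabp4, the adipocyte fatty acid binding protein, read 7806 on HFHS AdipoKO and 7498 on STD AdipoKO. Of 14 lipid droplet proteins, 2 were at least 1.5-fold higher, Cavin3 (2.05-fold) and Cav2 (1.73-fold), both of caveolae, and none was lower.

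In cholesterol synthesis and uptake, Nsdhl, a late enzyme of the pathway, was 2.33-fold higher (432 on HFHS AdipoKO, 186 on STD AdipoKO). Hmgcs1, which makes HMG-CoA at its start, was 2.6-fold lower (512 on HFHS, 1330 on STD). The other 13 of 15 measured genes were within 1.5-fold. Of all 15, 13 had a ratio above 1, against 47.3% of all genes, and the median log2 ratio was 0.13. A further 4 genes of this list were above background on HFHS AdipoKO only. Of 11 cholesterol efflux and transport genes, 4 were higher and 3 lower by 1.5-fold or more, with a median log2 ratio of -0.16. Scarb1, the HDL receptor, was 1.98-fold higher (647 on HFHS, 326 on STD), Mylip, which degrades the LDL receptor, 1.66-fold higher (585 on HFHS, 353 on STD) and Npc2, a lysosomal cholesterol carrier, 1.55-fold higher (2096 on HFHS, 1352 on STD). The fourth, Pltp, phospholipid transfer protein, named after its value was seen, had a log2 ratio of 0.67. On the lower side the cholesterol exporter Abca1 was 1.76-fold lower (734 on HFHS, 1293 on STD), Npc1, which moves cholesterol out of lysosomes, 1.80-fold lower (299 on HFHS, 538 on STD), and Apoe 1.67-fold lower (231 on HFHS, 386 on STD).

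Oxidative metabolism showed small differences. None of 34 respiratory chain and ATP synthase subunits reached 1.5-fold, the range being -0.29 to 0.36 on the log2 scale. One of 23 fatty acid oxidation genes did, Ehhadh, a peroxisomal enzyme, 1.86-fold lower at 183 on HFHS AdipoKO against 340 on STD AdipoKO. Of 24 genes of pyruvate entry and the TCA cycle, Pdk2, a kinase that switches off pyruvate dehydrogenase, was 1.65-fold lower (537 on HFHS, 884 on STD), and no other gene reached 1.5-fold. Branched-chain amino acid breakdown had 3 of 22 genes at least 1.5-fold lower and none higher, with 15 of 22 below 1. These were Ppm1k, the phosphatase that activates the branched-chain ketoacid dehydrogenase, at 170 on HFHS AdipoKO and 316 on STD AdipoKO (1.86-fold lower), Hsd17b10 (1.63-fold) and Mccc2 (1.54-fold). In flox/y 6 of the 22 were at least 1.5-fold lower, where 7.45% of all genes were. Ppargc1a, a coactivator of mitochondrial genes, was below background on HFHS AdipoKO (36.5) and read 116 on STD AdipoKO, at least 2.20-fold lower against that array's background. Ucp1, the uncoupling protein of brown and beige fat, was below background on all 4 arrays (18.6 and 21.7 in HFHS and STD AdipoKO).

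For glucose use, the insulin-responsive transporter gene Slc2a4 (GLUT4) read 296 on HFHS AdipoKO and 155 on STD AdipoKO, 1.91-fold higher. Tpi1, a glycolytic isomerase, was 1.61-fold higher (620 on HFHS, 386 on STD). Pfkfb3, which makes the glycolysis activator fructose 2,6-bisphosphate, was 2.02-fold lower (354 on HFHS, 715 on STD). The remaining 12 of 15 genes of glucose uptake and glycolysis were within 1.5-fold.

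Adipocyte identity genes had a median log2 ratio of 0.01 over 17 genes. Adipoq, adiponectin, read 1767 on HFHS AdipoKO and 1755 on STD AdipoKO, and Pparg, the master regulator of adipocytes, 1319 on HFHS and 1239 on STD. Cebpa, its partner factor, read 583 on HFHS AdipoKO and 615 on STD AdipoKO. In this list Gpd1 and Slc2a4 were at least 1.5-fold higher and Insr, the insulin receptor, 1.85-fold lower (532 on HFHS, 987 on STD). Of the fat pad expansion markers, whose levels in mice track the growth of the depot, 12 of 13 had a ratio above 1 and the median log2 ratio was 0.49, with 4 genes at least 2-fold higher (Lep, Steap4, Sfrp5 and Npr3) and Peg3 at least 2-fold lower. Sfrp5, a secreted Wnt inhibitor, read 383 on HFHS AdipoKO and 138 on STD AdipoKO (2.77-fold higher), against 565 on HFHS flox/y and 54.1, below background, on STD flox/y. The flox/y median of the expansion markers was 0.81. Of other secreted products, Rbp4, retinol-binding protein, was 1.53-fold higher (1432 on HFHS, 937 on STD) and Nrg4, a neuregulin released by fat, 1.55-fold lower (162 on HFHS, 251 on STD).

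Of 32 genes of the insulin to mTORC1 pathway, 5 were higher and 5 lower by 1.5-fold or more, and the median log2 ratio was -0.07. Pik3cb, Irs1, Grb10 and Sesn2 were at least 2-fold lower, and Insr was the fifth. Named after their values were seen, the higher ones were Tbc1d4, which links Akt to GLUT4 traffic (log2 ratio 1.04), Trib1, a pseudokinase (0.96), Deptor, an inhibitor within the mTOR complexes (0.92), Pik3r1, the regulatory subunit of PI 3-kinase (0.76), and Sesn3, a sestrin (0.61). Pik3cb, a catalytic subunit of PI 3-kinase, read 190 on HFHS AdipoKO and 604 on STD AdipoKO, 3.18-fold lower. Irs1, the docking protein of the insulin receptor, read 137 on HFHS AdipoKO and 403 on STD AdipoKO, 2.93-fold lower. In flox/y, Pik3cb read 201 on HFHS and 477 on STD and Irs1 read 166 on HFHS and 320 on STD, so that for both genes each HFHS array was below each STD array. Grb10, an adaptor that restrains the insulin receptor, was 2.10-fold lower (293 on HFHS AdipoKO, 617 on STD AdipoKO). The 32 genes include Pdk1, a pyruvate dehydrogenase kinase that is also in the list of pyruvate entry and the TCA cycle. It was level (101 on HFHS AdipoKO, 97.9 on STD AdipoKO).

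Ddit4 and Sesn2 are stress-induced inhibitors of mTORC1. Ddit4, the microRNA target the study followed, read 384 on HFHS AdipoKO and 483 on STD AdipoKO, a 1.26-fold lower value, which is within the range of most genes. Both AdipoKO values of Ddit4 were above the flox/y values, 202 on HFHS and 187 on STD. Sesn2, sestrin 2, read 240 on HFHS AdipoKO and 499 on STD AdipoKO (2.08-fold lower), with 271 and 245 in HFHS and STD flox/y, so that the STD AdipoKO array alone was high.

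Imprinted growth genes were mostly level, and 3 of 16 were at least 2-fold lower with none higher. Zim1, a zinc finger gene, read 110 on HFHS AdipoKO and 592 on STD AdipoKO, 5.39-fold lower. Peg3, the paternally expressed zinc finger gene beside it, read 863 on HFHS AdipoKO and 2709 on STD AdipoKO, 3.14-fold lower. The 2 genes lie at chr7:6674444-6696540 and chr7:6703892-6730462 in GRCm38, and the third was Grb10. In flox/y, Zim1 read 102 on HFHS and 260 on STD, and Peg3 904 on HFHS and 2186 on STD. The median log2 ratio of the 16 genes was -0.02 and Impact, the next largest difference, was 1.37-fold lower (306 on HFHS, 419 on STD).

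Of 302 predicted targets of the shared seed on the array, 222 were measured on both AdipoKO arrays. Their median log2 ratio was -0.05, against -0.017 for all genes, 9 were at least 1.5-fold higher (against 3.39% of all genes) and 12 at least 1.5-fold lower (against 3.36%). Since both mice lack the microRNAs in adipocytes, the comparison holds that deletion fixed. Tiparp, a poly(ADP-ribose) polymerase induced by the dioxin receptor, read 629 on HFHS AdipoKO and 243 on STD AdipoKO, with a log2 ratio of 1.37 on its brighter probe set and 0.79 as the mean of both. Hipk1 and Hipk2, nuclear kinases, were 1.89-fold (1228 on HFHS, 650 on STD) and 1.86-fold (1534 on HFHS, 827 on STD) higher. Slc4a4, a sodium bicarbonate cotransporter, was 2.51-fold lower (259 on HFHS AdipoKO, 651 on STD AdipoKO). The neuronal splicing factor gene Nova1 was 2.06-fold lower (106 on HFHS, 218 on STD), and Cxcl12, a chemokine that retains leukocytes and progenitors, 2.01-fold lower (364 on HFHS, 733 on STD). In flox/y, 5 of 215 targets were at least 1.5-fold higher and 30 lower, where 4.51% and 7.45% of all genes were. The median log2 ratio of the targets in flox/y was -0.14, against -0.03 for all genes above background on all 4 arrays.

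**Figure D3:**
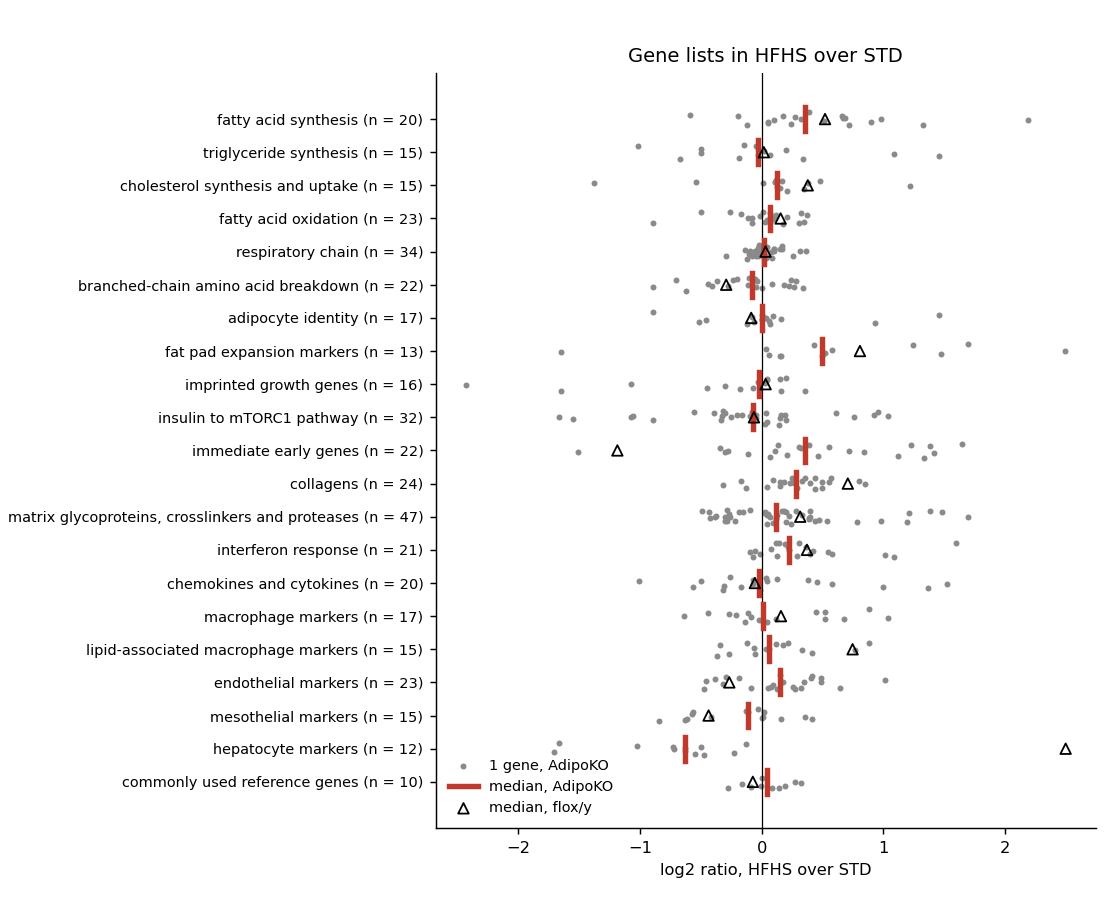
Log2 ratio of HFHS over STD for 21 gene lists, with 1 grey point per gene in AdipoKO, a red bar at the AdipoKO median, and an open triangle at the flox/y median. Each list shows its number of genes above background on both AdipoKO arrays (n), and the triangles of the immediate early genes (-1.19) and hepatocyte markers (2.5) lie on the other side of 0 from the AdipoKO bars (0.35 and -0.63).

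Most collagen genes were slightly higher on HFHS AdipoKO. Of 24 collagen genes, 21 had a ratio above 1, against 47.3% of all genes. At 1.5-fold 2 were higher and none lower, with a median log2 ratio of 0.28. Col12a1, a collagen of fibril surfaces, read 128 on HFHS AdipoKO and 71.3 on STD AdipoKO (1.80-fold higher), and Col15a1, of basement membranes, 262 on HFHS and 151 on STD (1.74-fold higher). Col6a1 and Col6a2, chains of the collagen that surrounds adipocytes, were 1.47-fold (1010 on HFHS, 689 on STD) and 1.48-fold (445 on HFHS, 300 on STD) higher. In flox/y the collagen median was 0.71, with 11 of 21 genes at least 1.5-fold higher, against 4.51% of all genes. Among 47 matrix glycoproteins, crosslinkers and proteases, 32 had a ratio above 1 and 15 below it, 7 were at least 1.5-fold higher, 5 of them at least 2-fold, and none was at least 1.5-fold lower. Tnc, tenascin C, read 203 on HFHS AdipoKO and 72.6 on STD AdipoKO (2.80-fold higher), and Adam12, a protease of growing fat and muscle, 185 on HFHS and 80.1 on STD (2.32-fold higher). Ccn2, connective tissue growth factor, had 499 on HFHS AdipoKO and 192 on STD AdipoKO, a log2 ratio of 1.38 on its brighter probe set and 0.71 as the mean of both.

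Single chemokine genes were among the larger differences. Ccl2, the monocyte chemoattractant, read 280 on HFHS AdipoKO and 97.5 on STD AdipoKO, 2.88-fold higher. Its neighbour on chromosome 11, Ccl7, a related chemokine, read 228 on HFHS AdipoKO and 88.3 on STD AdipoKO, 2.58-fold higher. In flox/y both were lower on HFHS, at 127 against 318 for Ccl2 and 129 against 280 for Ccl7. Of 20 measured chemokines and cytokines 3 were at least 1.5-fold higher, the third being Cxcl9 (1.99-fold), and 1 was lower, Cxcl12. The median log2 ratio of these 20 genes was -0.02, with 9 above and 11 below 0. Tnf read 39.7 on HFHS AdipoKO and 29.5 on STD AdipoKO, Il6 11.9 on HFHS and 11.3 on STD and Il1b 19.9 on HFHS and 19 on STD, all below background.

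General macrophage markers had a median log2 ratio of 0.01 over 17 genes, with 3 at least 1.5-fold higher and 1 lower. The higher ones were Itgam, the integrin CD11b (355 on HFHS AdipoKO, 173 on STD AdipoKO), Mertk, an engulfment receptor (720 on HFHS, 390 on STD), and Mrc1, the mannose receptor (1069 on HFHS, 668 on STD). Mpeg1, the macrophage perforin, was 1.56-fold lower (107 on HFHS, 167 on STD). Of 15 markers of lipid-associated macrophages, which surround dying adipocytes, 2 were at least 1.5-fold higher, Fabp5 (336 on HFHS, 183 on STD) and Lgals3 (232 on HFHS, 136 on STD). Gpnmb, a leading marker of these cells, read 111 on HFHS AdipoKO and 143 on STD AdipoKO, against 490 on HFHS flox/y and 253 on STD flox/y. The list's median was 0.06 in AdipoKO and 0.75 in flox/y, where 8 of 15 were at least 1.5-fold higher, against 4.51% of all genes.

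The interferon response list had 17 of 21 genes above a ratio of 1 and a median of 0.22. Iigp1, an interferon-induced GTPase, read 205 on HFHS AdipoKO and 68.0 on STD AdipoKO, 3.02-fold higher, with 203 on HFHS flox/y and 96.8 on STD flox/y. Lgals3bp, a secreted glycoprotein, was 2.13-fold higher (1447 on HFHS, 681 on STD) and Gbp7, a guanylate-binding protein, 2.02-fold higher (289 on HFHS, 143 on STD). No antigen presentation gene of 16 reached 1.5-fold, and 13 were above 1. Acute phase proteins had 5 of 11 genes at least 1.5-fold higher and none lower, Steap4 included. Lbp, which binds bacterial lipopolysaccharide, read 1084 on HFHS AdipoKO and 469 on STD AdipoKO (2.31-fold higher). Lcn2, lipocalin 2, was 1.89-fold higher (332 on HFHS, 176 on STD) and Orm1, orosomucoid, 1.86-fold higher (556 on HFHS, 298 on STD). The median of this list was 0.38, with 0.60 where the HFHS array alone had to be above background and 0.24 without a filter.

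Immediate early genes, which switch on within minutes of a stimulus, were higher on HFHS AdipoKO than on STD AdipoKO, and highest on the STD flox/y array. Of the 22 measured, 8 were higher and 1 lower on HFHS AdipoKO by 1.5-fold or more, with a median of 0.35. In flox/y none was higher and 17 were lower by 1.5-fold or more, against 7.45% of all genes lower, with a median of -1.19. Summed expression values were 8875 on HFHS AdipoKO and 6619 on STD AdipoKO, with 6301 on HFHS flox/y and 13614 on STD flox/y. Egr1 read 287 on HFHS AdipoKO, 91.9 on STD AdipoKO, 108 on HFHS flox/y and 1044 on STD flox/y. Fosb, a subunit of AP-1, was 2.67-fold higher (185 on HFHS AdipoKO, 69.4 on STD AdipoKO) and Egr2 2.18-fold higher (135 on HFHS, 62.0 on STD). Nr4a3, a nuclear receptor of the same early class, was the lower one, at 186 on HFHS AdipoKO and 530 on STD AdipoKO (2.84-fold).

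Several called genes outside that list were likewise higher on HFHS in AdipoKO and lower on HFHS in flox/y. Sdc4 read 1730 on HFHS AdipoKO and 553 on STD AdipoKO, with 502 on HFHS flox/y and 1536 on STD flox/y. Tnfrsf12a, the receptor of the cytokine TWEAK, read 446 and 157 in HFHS and STD AdipoKO and 115 and 445 in HFHS and STD flox/y. Errfi1, a feedback inhibitor of EGF receptor signalling, was 2.12-fold higher (1696 on HFHS, 800 on STD). In flox/y Errfi1 read 908 on HFHS and 2504 on STD. The glucocorticoid targets and metallothioneins, of which Errfi1 is one, had 4 of 21 at least 1.5-fold higher and 3 lower, and Fkbp5, a chaperone induced by glucocorticoid, was 1.79-fold higher (471 on HFHS, 264 on STD).

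Hepatocyte markers were lower on HFHS AdipoKO. All 12 measured on both arrays had a ratio below 1, 7 of them by at least 1.5-fold, and the median log2 ratio was -0.63, while 2 more were above background on STD AdipoKO only and 8 on neither. Alb, serum albumin, read 288 on HFHS AdipoKO and 913 on STD AdipoKO (3.17-fold lower), against 4739 on HFHS flox/y and 414 on STD flox/y. Tat, tyrosine aminotransferase of the liver, read 55.2 on HFHS AdipoKO and 180 on STD AdipoKO (3.27-fold lower), with 1710 and 141 in HFHS and STD flox/y. Cps1, the first enzyme of the urea cycle, was 2.03-fold lower (60.1 on HFHS, 122 on STD). Mup3, a major urinary protein made by the liver, was 2.81-fold lower (148 on HFHS, 415 on STD). On HFHS AdipoKO, Tat and Cps1 were close to the background of 52.8. Summed values of the list were 7653 on HFHS AdipoKO, 9452 on STD AdipoKO, 18248 on HFHS flox/y and 9330 on STD flox/y. Alb, Tat and Cps1 made up little of the sum on HFHS AdipoKO. Alb, Tat, Cps1 and Mup3 were all highest on the HFHS flox/y array, and the source of the liver transcripts in fat was not tested.

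**Figure D4:**
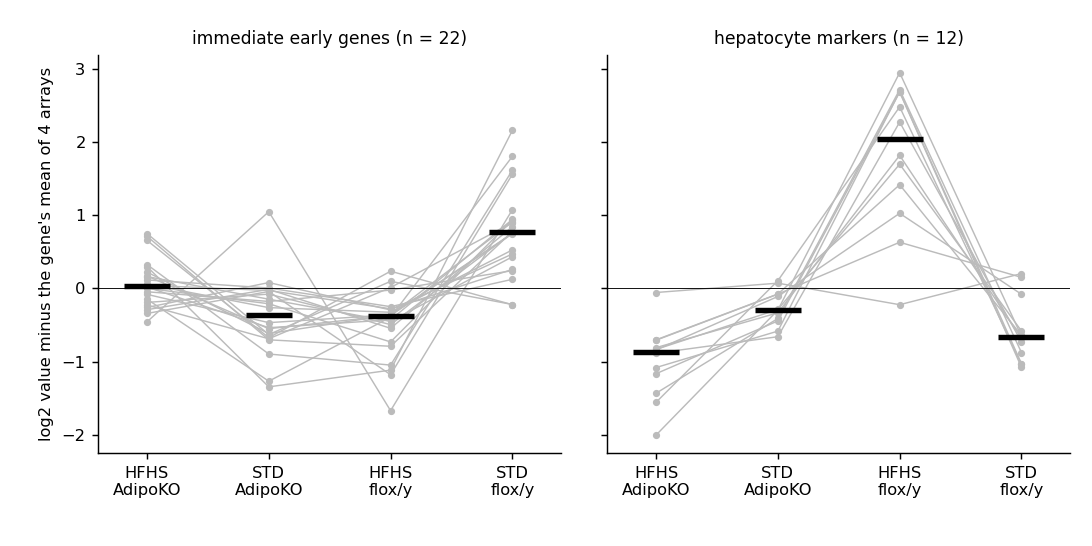
Log2 value of each of 22 immediate early genes, left, and 12 hepatocyte markers, right, minus that gene's mean of the 4 arrays, with 1 grey line per gene and a black bar at the median of each array. The immediate early genes stand highest on the STD flox/y array and the hepatocyte markers on the HFHS flox/y array, while HFHS AdipoKO lies above STD AdipoKO for the first list and below it for the second.

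Heat shock proteins had 4 of 20 genes at least 1.5-fold higher and 1 lower. Besides Hspb7 they were Dnajb1, a co-chaperone (234 on HFHS AdipoKO, 128 on STD AdipoKO), Cryab, alpha-B crystallin (689 on HFHS, 394 on STD), and Hspb1 (248 on HFHS, 157 on STD). In flox/y Dnajb1 was lower on HFHS (152 on HFHS, 574 on STD), while Hspb7, Cryab and Hspb1 had ratios above 1. Of 29 genes of ER stress and the ATF4 response, 2 were at least 1.5-fold higher, Psat1 of serine synthesis (1.76-fold) and the secretory regulator Xbp1 (1.71-fold), and 3 lower, including Chac1, which degrades glutathione, 2.07-fold lower (107 on HFHS, 222 on STD) and Sesn2. In antioxidant defence Srxn1, sulfiredoxin, was 1.75-fold higher (258 on HFHS, 148 on STD), Hmox1, haem oxygenase, 1.69-fold higher (312 on HFHS, 184 on STD) and Gpx3, the secreted glutathione peroxidase, 1.80-fold lower (355 on HFHS, 638 on STD). Gpx3 was lower on HFHS in flox/y too (351 on HFHS, 703 on STD).

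Other regulators gave single genes. Nr1d1, the clock repressor REV-ERB alpha, was 2.27-fold higher (482 on HFHS AdipoKO, 212 on STD AdipoKO) and Npas2, a clock activator, 1.70-fold lower (122 on HFHS, 207 on STD), out of 15 clock genes. Aldh1a3, a retinoic acid synthesising enzyme, was 2.80-fold higher (336 on HFHS, 120 on STD), with 141 on HFHS flox/y and 247 on STD flox/y. Mki67, the proliferation marker, was 2.21-fold higher (206 on HFHS, 93.2 on STD) and 194 and 85.0 in HFHS and STD flox/y. Mcm7, a subunit of the replicative helicase, was the 1 gene of the cell cycle list lower by at least 1.5-fold (69.3 on HFHS, 105 on STD), and the 14 measured genes of the list had a median log2 ratio of 0.09, with 8 above and 6 below 0. Acvr1c, the activin receptor ALK7 of adipocytes, was 1.73-fold lower (504 on HFHS, 870 on STD), and Klf15, a glucocorticoid-induced factor, 1.53-fold lower (177 on HFHS, 271 on STD). Of 32 lysosomal genes 3 were higher by 1.5-fold or more, among them Ctsd, the protease cathepsin D (3093 on HFHS, 1959 on STD), and 1 was lower. In flox/y 8 of 31 lysosomal genes were at least 1.5-fold higher, against 4.51% of all genes. Ndrg1, a hypoxia-induced gene, was 1.78-fold higher (927 on HFHS, 522 on STD), and Igfbp4, an IGF binding protein, 1.52-fold lower (821 on HFHS, 1249 on STD). Of the 13 measured genes that the study followed by RT-qPCR, Lep and Fasn were higher by 1.5-fold or more and none was lower, with a median log2 ratio of 0.01. Outside these 13, Ppargc1a was above background on STD AdipoKO only and at least 2.20-fold lower. Cox8b was above background on HFHS AdipoKO only, at least 1.17-fold higher.

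The other cells of the pad were followed by marker lists. Endothelial markers had a median log2 ratio of 0.15 over 23 genes, 2 of them at least 1.5-fold higher, Mmrn1, which marks lymphatic endothelium (322 on HFHS AdipoKO, 159 on STD AdipoKO), and Sox17 (354 on HFHS, 227 on STD). Summed endothelial values were 12618 on HFHS AdipoKO and 11966 on STD AdipoKO. Smooth muscle and pericyte markers had a median of 0.23 over 17 genes, with Cnn1, calponin, 1.97-fold higher (248 on HFHS, 126 on STD). In flox/y Cnn1 was lower on HFHS (55.2 on HFHS, 216 on STD), and 10 of the 17 genes had opposite directions in the 2 genotypes. Mesothelial markers, which line the pad, had 3 of 15 at least 1.5-fold lower, Gpm6a, Rspo1 and Lrrn4, and a summed value of 4093 on HFHS AdipoKO against 4843 on STD AdipoKO. Adipose progenitor markers had a median of 0.04 over 18 genes, with Pi16 and Thy1 at least 1.5-fold higher and Fmo2 lower. T and NK cell, B cell and dendritic cell markers were measured in 4, 2 and 4 genes, and none reached 1.5-fold. Of 3 measured markers of neutrophils, mast cells and eosinophils, Cpa3, a mast cell protease, was 1.61-fold higher (117 on HFHS, 72.6 on STD). The epididymis and germ cell list had 17 of 18 genes on neither array, and its remaining gene, Odf1, read 1895 and 1946 in HFHS and STD AdipoKO. The 10 measured reference genes in common use had a median of 0.05, none reaching 1.5-fold.

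Against the flox/y pair, the chow difference in AdipoKO was smaller in spread and overlapped in part. Among 10006 genes above background on all 4 arrays, the SD of the log2 ratio was 0.33 in AdipoKO and 0.42 in flox/y. At least 2-fold higher were 90 genes in AdipoKO and 125 in flox/y, with 30 shared (33.3% of the AdipoKO and 24% of the flox/y genes). At least 2-fold lower were 83 genes in AdipoKO and 170 in flox/y, with 21 shared (25.3% and 12.4%). In opposite directions, 13 genes were 2-fold higher in AdipoKO and 2-fold lower in flox/y, and 4 the reverse. Over the genes above background on both arrays of a pair, 0.864% in AdipoKO and 1.28% in flox/y were at least 2-fold higher, and 0.771% and 1.7% at least 2-fold lower. The flox/y spread and counts include the hepatocyte markers (flox/y median 2.5), highest on the HFHS flox/y array. They also include the immediate early genes (-1.19), highest on the STD flox/y array. With 1 mouse per group, a smaller spread in AdipoKO cannot be told apart from a difference between single mice.

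Of the 90 higher genes, 57 (63.3%) also had a ratio above 1 in flox/y, where 46.8% of all genes did, and 37 were within 1.5-fold there. Of the 83 lower genes, 66 (79.5%) also had a ratio below 1 in flox/y, against 53.2% of all genes, and 35 were within 1.5-fold. Across the 10006 genes, Pearson's r of the log2 ratios was 0.31 and Spearman's rho 0.36. This is a description across genes, which are no independent replicates, of arrays whose normalization method is not given. For 43 of the 90 higher genes the HFHS AdipoKO array was the highest of 4 and STD AdipoKO the lowest, and for 51 of the 83 lower genes the order was the reverse. Genes picked for a large AdipoKO ratio favour such an order.

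**Figure D5:**
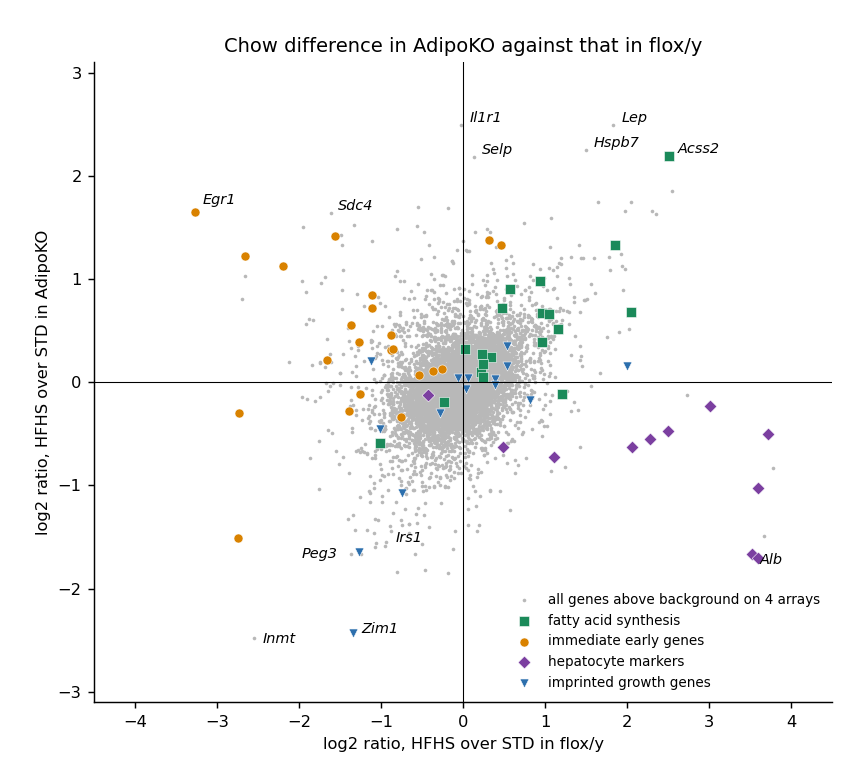
Log2 ratio of HFHS over STD in AdipoKO (vertical) against that in flox/y (horizontal) for the 10006 genes above background on all 4 arrays, with 4 gene lists coloured. Fatty acid synthesis genes lie mostly in the upper right, Zim1 and Peg3 in the lower left, immediate early genes mostly to the left and above 0, hepatocyte markers mostly to the right and below 0, and Il1r1 and Selp near 0 on the horizontal axis.

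Genes above background on only 1 AdipoKO array have a bound on their ratio, taken against the background of the dim array. Of the 679 above it on HFHS only, 4 had a bound of at least 2-fold (0.589%), and of the 301 on STD only, 13 had one (4.32%). The 4 were Lctl, a klotho-family glycosidase-like protein, at least 3.06-fold higher (170 on HFHS AdipoKO, 44.1 on STD AdipoKO), Serpina3b, at least 2.76-fold (153 on HFHS, 52.7 on STD), Orm3, an orosomucoid, at least 2.57-fold (142 on HFHS, 41.6 on STD), and Paqr9, at least 2.18-fold (121 on HFHS, 46.2 on STD). On the lower side, St6galnac5, a sialyltransferase, was at least 3.17-fold lower (38.6 on HFHS, 167 on STD) and Dmrt2, a transcription factor of the doublesex family, at least 3.07-fold lower (48.1 on HFHS, 162 on STD). Slc40a1, the iron exporter ferroportin, read 31.4 on HFHS AdipoKO and 128 on STD AdipoKO, at least 2.42-fold lower. The plasma protein genes Mug1 (at least 2.62-fold lower) and Serpina1c (at least 2.40-fold lower) were, like Alb, brightest on the HFHS flox/y array, at 1578 and 1283.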

How the data were processed

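Total RNA of epididymal fat was labelled with the GeneChip WT PLUS kit and hybridised to GeneChip Mouse Gene 2.0 ST arrays, which were analysed for the authors by Filgen. The authors deposited log2 values, already normalized, for 41345 probe sets, and no source used here gives the normalization method. Negative control averages came from supplementary tables of the paper, whose leading 548 rows per table matched the deposited values to within 4.84e-05 on the log2 scale. Arrays have no read depth, and with 1 array per group their number limits the precision.

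Platform annotation named a single gene for 23521 probe sets and more than 1 gene for 1820, and 16004 stayed unnamed. Each gene took its probe set with the highest mean of 4 arrays. Ratios are differences of log2 values, called at 2-fold. Where 1 array was dim, its negative control average took the place of its value and the fold is a bound. Lists (57, including the predicted targets given in the supplement and the genes the study measured by RT-qPCR) were described by counts at 1.5-fold and medians, and some genes are in more than 1 list. Named genes were the 15 highest and 15 lowest ratios, the 6 largest bounds each way, up to 4 members per list with the largest ratio, up to 6 predicted targets each way, the 10 largest differences from flox/y each way, and genes the study names. Predicted genes, small RNAs, receptor families and antigen receptor segments were counted, not named (3 of the higher and 12 of the lower calls). Members and lists were chosen with earlier results of these data known. Coordinates are RefSeq GRCm38.p6. Counting steps were tested on simulated data. Python 3.11.15, pandas 2.3.3, numpy 2.4.6, scipy 1.17.1, statsmodels 0.14.6 and matplotlib 3.10.9 were used.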

Additional observations from a re-analysis of the deposited data

Results flagged for a closer look

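For 16 of the named genes and 1 list, the chow ratio ran in opposite directions in AdipoKO and flox/y fat, each by at least 2-fold for a gene. With 1 mouse per group the difference between the genotypes was not tested. Higher on HFHS in AdipoKO and lower on HFHS in flox/y were Egr1 (log2 ratio 1.65 in AdipoKO, -3.28 in flox/y), Egr2 (1.12 in AdipoKO, -2.20 in flox/y), Fosb (1.42 in AdipoKO, -1.57 in flox/y) and Ier3 (1.22 in AdipoKO, -2.66 in flox/y), all early response genes. Of cell surface, secreted and signalling genes the same held for Sdc4 (1.64 in AdipoKO, -1.61 in flox/y), Tnfrsf12a (1.5 in AdipoKO, -1.95 in flox/y), Errfi1 (1.08 in AdipoKO, -1.46 in flox/y), Ccl2 (1.52 in AdipoKO, -1.33 in flox/y), Ccl7 (1.37 in AdipoKO, -1.11 in flox/y) and the lymphatic endothelial gene Mmrn1 (1.02 in AdipoKO, -1.69 in flox/y). It also held for B4galt1, a galactosyltransferase (1.43 in AdipoKO, -1.5 in flox/y), and Chka, choline kinase (1.03 in AdipoKO, -2.67 in flox/y).

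Liver genes ran the other way. Alb had a log2 ratio of -1.66 in AdipoKO and 3.52 in flox/y, Tat -1.71 in AdipoKO and 3.60 in flox/y, Cps1 -1.02 in AdipoKO and 3.59 in flox/y, and Mup3 -1.49 in AdipoKO and 3.67 in flox/y. The median of the hepatocyte markers was -0.63 in AdipoKO and 2.5 in flox/y. In the first group of genes the STD flox/y array and in the second the HFHS flox/y array held the highest value of 4, with the exceptions of Sdc4, Mmrn1 and Tnfrsf12a, which were highest on HFHS AdipoKO.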

How the results depend on the processing

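No paired analysis was possible because the mouse numbers of the labels are all different and each group has 1 array, and for the same reason no array could be left out. The count of genes at least 2-fold lower was 55 among genes at 2 times the negative control average, where fewer genes were tested, and 146 over all probe sets, named or not. At a 1.5-fold threshold 365 genes were higher and 361 lower. Under all filters and scalings at 2-fold, higher counts ran from 62 to 139. Lower counts ran from 55 to 146, and from 72 to 124 with the 2 settings just named left out. Sign changes under at least 1 alternative were met by 8 of 243 named genes, none beyond 0.093 in size on the log2 scale, and by 12 of 57 list medians, none beyond 0.17, among them the adipocyte identity, macrophage, progenitor and imprinted medians. Higher calls outnumbered lower ones as reported (93 and 83), but lower calls outnumbered higher ones over all probe sets (139 higher, 146 lower), without a filter (106 higher, 124 lower) and with the mean of 4 arrays as filter (99 higher, 105 lower). Scaling moved the median log2 ratio of all genes by at most 0.03. Of the called genes, 123 of 173 had the same sign in flox/y, or 121 of 171 after quantile normalization or centring. The median of the retinoid list, 0.12, ran from 0.02 to 0.38. Low values are limited by the array background.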
